A study of Mus musculus with 5 samples.

Results

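The Tbx3-only clusters described here are groups of at least 3 neighbouring Tbx3 regions, in the adult mouse heart, that had no Nkx2-5 or Gata4 region in or near them. They hold 1017 of the 13242 regions in the Tbx3 list and lie in 295 domains. The members were chosen by the measured positions of the regions. Regions of the 3 lists on chromosomes 1 to 19, starting at 3.1 Mb or later and narrower than 400 bp, were pooled, and regions whose gap was 10 kb or less were joined into a domain. A domain was kept if it held 3 or more Tbx3 regions and no region of the other lists. Clustering within 10 kb and the absence of Nkx2-5 and Gata4 there are therefore part of the definition and not findings. Of the 13011 Tbx3 regions that passed the filter, the members are 7.82% (exact 95% interval 7.36 to 8.29%).

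The lists come from chromatin immunoprecipitation followed by sequencing (ChIP-seq), which recovers DNA bound by a protein with an antibody and places it on the genome. Whole adult hearts of FVB/N mice were used, with 1 library for each factor. Tbx3 was profiled with the antibody A-20 in Myh6-MCM;CAG-CAT-TBX3 hearts. Myh6-MCM expresses a tamoxifen-inducible Cre recombinase in cardiomyocytes, and CAG-CAT-TBX3 is a transgene that yields TBX3 after Cre has removed the CAT cassette. Nkx2-5 (antibody N-19) and Gata4 (antibody C-20) were profiled in wild-type hearts. The same Tbx3 antibody in Myh6-MCM hearts, which lack the TBX3 transgene, and p300 in wild-type hearts were not analysed here. Absence of Nkx2-5 and Gata4 thus means absence from lists made in hearts without the transgene, and genotype and factor cannot be told apart. No list gives a height, score or read number, so weaker binding that was not called a region cannot be seen, and the lists differ in length (13242 regions for Tbx3, 6705 for Nkx2-5 and 1756 for Gata4). With 1 library for each factor there is no replicate check, and the values below are descriptions of these lists without a test. Exact 95% intervals cover counting error only and treat domains, regions or gaps as independent.

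Tbx3 is a T-box transcription factor that mainly represses its targets. In the heart it is known from the sinoatrial node and the atrioventricular conduction system, where it keeps down genes of the working myocardium. T-box factors bind DNA through the T-box domain. Nkx2-5, a homeodomain protein, and Gata4, a zinc-finger protein, are broadly expressed cardiac factors that can act with T-box factors at shared regulatory elements. Neighbouring regions in such a list may be separate sites or parts of a single stretch, which positions alone cannot tell apart. Genes at the clusters, and their DNA sequence, were not analysed here, because the files use mm9 and the gene table at hand is of another build.

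Most clusters were small, with 3 regions as the minimum set by the rule. Of the 295 domains, 207 (70.2%, exact 95% interval 64.6 to 75.3%) held exactly 3 Tbx3 regions, 56 held 4 and 24 held 5. Another 5 domains held 6 regions, 2 held 7, and 1 held 8. Small size was not particular to these clusters. When Tbx3 regions were joined without regard to the other lists, 490 of 830 groups of 3 or more held exactly 3. The domains spanned a median of 5.76 kb (interquartile range 2.02 to 10.003 kb), from 0.601 kb to 26.3 kb. The regions themselves covered a median of 544 bp in each domain, which was 8.88% of the span (interquartile range 5.79 to 27.6%). Members were narrow, with a median width of 150 bp (interquartile range 121 to 194 bp) and a range of 100 to 394 bp. Within a domain the widest region was a median of 1.73 times as wide as the narrowest, and in 176 domains (59.7%) at least 1 region reached 200 bp.

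The domain with the most regions lay at chr5:35397842-35416914 (mm9) and held 8 Tbx3 regions over 19.1 kb. Its regions were 106 to 225 bp wide and were separated by gaps of 1004 to 6193 bp, so none of them adjoined another closely. The nearest Nkx2-5 region was 45.8 kb away and the nearest Gata4 region 45.7 kb away. Within 100 kb of this domain there were 4 Nkx2-5 and 2 Gata4 regions, and 5 further Tbx3 regions. It was the only one of the 10 domains with the most regions that had more than 1 Gata4 region within that distance.

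Domains with 7 regions were found at chr18:35989295-36009423 and chr10:61783302-61803068. Both spanned about the same length as the largest domain, 20.1 kb and 19.8 kb, and both had a largest gap just below 7 kb (6932 and 6871 bp). Their surroundings differed. The domain on chromosome 18 had an Nkx2-5 region 20.2 kb away and 7 other Tbx3 regions within 100 kb. The domain on chromosome 10 had its nearest Nkx2-5 region at 146 kb and its nearest Gata4 region at 453 kb, although 2 other Tbx3 regions lay within 100 kb.

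The 5 domains with 6 regions ranged from tight to loose. The tightest, at chr19:46574330-46579003, fitted its 6 regions into 4.67 kb, with gaps of 229 to 1755 bp and a widest region of 351 bp. The loosest, at chr17:56592768-56616953, spread them over 24.2 kb, and no region in it exceeded 173 bp. A further Tbx3 region of 427 bp lay inside this last domain at 56601714 to 56602140 but was above the width limit and is not counted. The domain at chr4:141092769-141103109 split into groups of 3 regions at either end, with 6094 bp between them, and had the largest covered length of all, 1403 bp. At chr3:145306000-145320109 the smallest gap was 64 bp and the widest region, at 145312713 to 145313106, measured 394 bp, the widest among the members. The last, at chr15:89000026-89012977, held regions of 100 to 252 bp and had an Nkx2-5 region 13.5 kb away. Among domains with 5 regions the largest covered lengths were at chr2:178147374-178151965, with 1127 bp in 4.59 kb, and at chr7:127979355-127995718, with 1068 bp in 16.4 kb.

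**Figure D1:**
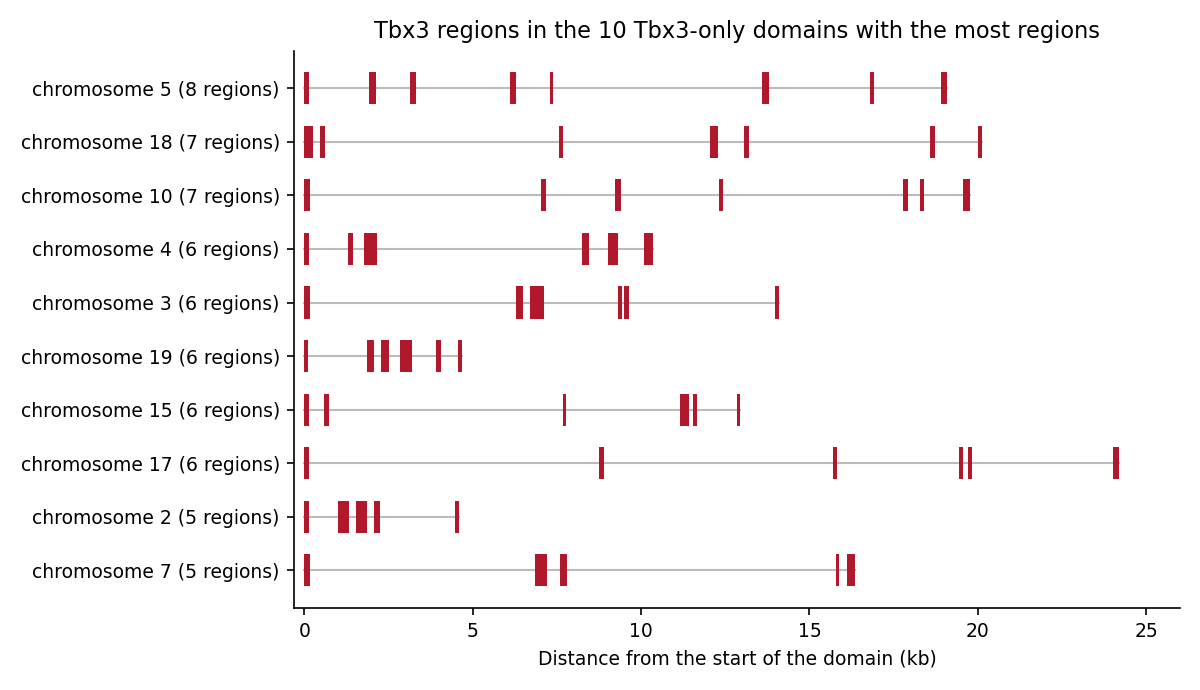
Tbx3 regions (red boxes, drawn to scale) in the 10 Tbx3-only domains with the most regions, by distance from the domain's first base (x axis, kb). The domains on chromosomes 19 and 2 held 6 and 5 regions in under 5 kb, whereas the domain on chromosome 17 spread 6 regions over 24.2 kb.

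Clusters of Tbx3 alone ranged from tight to spread out. Gaps between neighbouring members of a domain had a median of 1152 bp (exact 95% interval 892 to 1292 bp), with a wide interquartile range of 321 to 4099 bp. Of the 722 gaps, 347 (48.1%) were under 1 kb and 245 (33.9%) under 500 bp, while 147 (20.4%) were 5 kb or longer. When regions less than 1 kb apart were counted as 1 site, 78 domains (26.4%, exact 95% interval 21.5 to 31.9%) became a single site. A further 96 (32.5%) became 2 sites, and 121 (41.0%, 35.4 to 46.9%) still held 3 or more sites.

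The single-site domains spanned a median of 1.30 kb and at most 3.41 kb. The shortest of all, at chr9:56842903-56843503, held 3 regions in 601 bp with gaps of 73 and 110 bp. Members of single-site domains had a median width of 158 bp (exact 95% interval 148 to 169 bp), against 145 bp (139 to 152 bp) in domains of 3 or more sites, so these intervals overlap. The median distance of single-site domains to the nearest Nkx2-5 or Gata4 region was 78.5 kb (exact 95% interval 44.2 to 109 kb), against 39.1 kb (27.6 to 48.9 kb) for domains of 3 or more sites, with intervals that overlap. Domains of 2 sites lay between these, at 58.4 kb. Single-site domains lay farther from the next Tbx3 region. The median was 40.2 kb (37.6 to 57.3 kb), against 21.1 kb (18.9 to 25.3 kb) for domains of 3 or more sites. Here the intervals do not overlap. The number of sites and this distance both come from the Tbx3 positions that the rule joined, so they are not independent. The domain farthest from any other factor was a single site. It lay at chr14:14844781-14845755, held 3 regions in 0.975 kb, and had its nearest Nkx2-5 region at 1360 kb, its nearest Gata4 region at 2324 kb and the next Tbx3 region at 2236 kb. The longest domain, at chr14:26327776-26354109, was among the most spread out, with 5 regions over 26.3 kb, no gap below 5139 bp and an Nkx2-5 region 10.4 kb away.

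To compare these clusters with others of the same factor, Tbx3 regions were joined across gaps of 10 kb or less without regard to the other lists. This gave 830 runs of 3 or more Tbx3 regions, of which 295 (35.5%, exact 95% interval 32.3 to 38.9%) were the Tbx3-only clusters. The other 535, with 2083 regions, had an Nkx2-5 or Gata4 region within 10 kb, and in 431 of them the other factor's region overlapped a Tbx3 region directly. Tbx3-only clusters were tighter. The median gap was 1152 bp in them, against 2280 bp (exact 95% interval 2059 to 2541 bp) in runs near another factor. Merging regions less than 1 kb apart to 1 site removes all gaps under 1 kb by construction. It left 121 Tbx3-only clusters and 338 runs near another factor with 3 or more sites. In this smaller set the median gaps were closer, 3702 bp (3203 to 4360 bp) against 4299 bp (3970 to 4672 bp), with overlapping intervals. Before merging, gaps under 1 kb made up 48.1% (44.4 to 51.8%) against 34.2% (31.8 to 36.6%). Single-site clusters made up 26.4% against 10.5% (8.004 to 13.4%).

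The same order held at a fixed number of regions. Among clusters of exactly 3 regions, the median span was 4.94 kb (exact 95% interval 3.35 to 5.86 kb) for Tbx3 alone and 6.82 kb (5.76 to 7.71 kb) near another factor, with intervals that overlap slightly. Of these clusters, 65 of 207 (31.4%, 25.1 to 38.2%) against 48 of 283 (17.0%, 12.8 to 21.9%) were a single site. Among clusters of 4 or more regions the median spans were 8.51 kb (6.81 to 9.97 kb) and 12.4 kb (11.6 to 13.5 kb). The 104 runs that had another factor within 10 kb but no overlap lay between, with a median gap of 1976 bp (1386 to 2399 bp). In the 431 with overlap it was 2394 bp (2098 to 2592 bp), and these 2 intervals overlap. Gaps in Tbx3-only pairs, which the rule leaves out for having 2 regions, were like those of the members, with a median of 943 bp (775 to 1126 bp) and 50.6% (47.4 to 53.9%) under 1 kb. The stretch in which another factor's region ends membership is longer for a longer run, and span and freedom from other factors are thus linked by the rule. Among runs of exactly 3 regions, those spanning under 2 kb were free of other factors in 57.0% of cases (65 of 114, 47.4 to 66.3%), against 39.6% (30.01 to 49.8%) at 2 to 5 kb, 37.1% (29.8 to 44.9%) at 5 to 10 kb and 37.0% (27.9 to 46.9%) at 10 kb or more. The share was thus lower in the second class than in the shortest, with intervals that overlap slightly, and was level beyond it. The part of span in the difference was not tested.

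**Figure D2:**
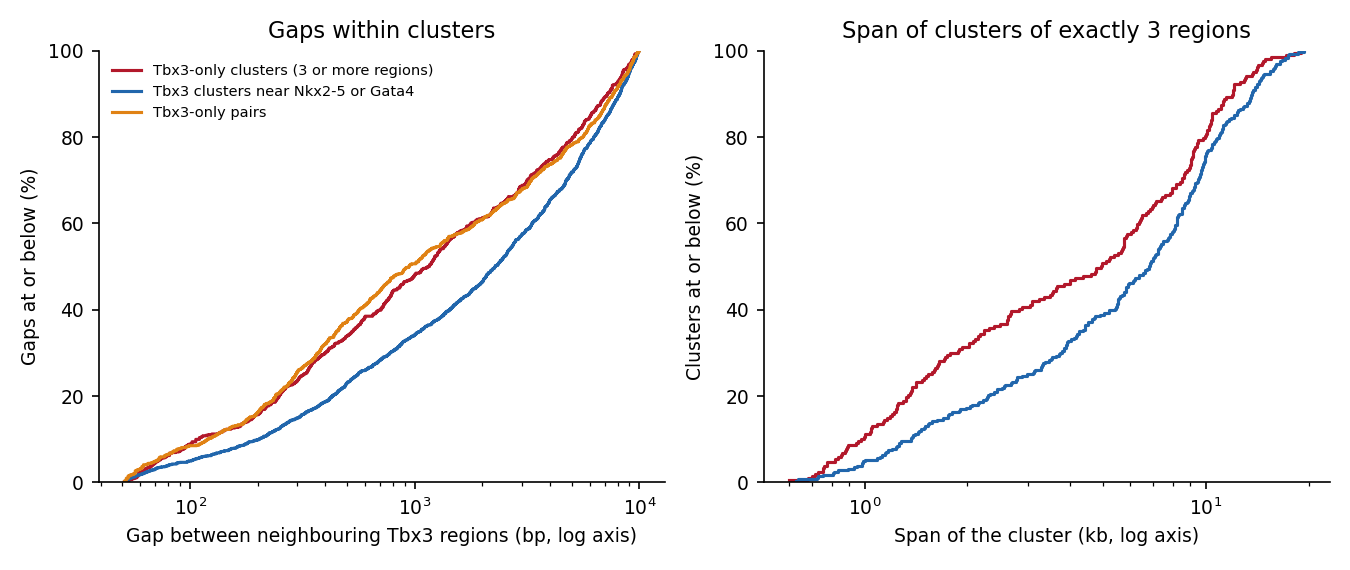
Left, cumulative share (y axis, %) of gaps between neighbouring Tbx3 regions by size (x axis, bp, log scale) in Tbx3-only clusters, in Tbx3 clusters with Nkx2-5 or Gata4 within 10 kb and in Tbx3-only pairs. Right, cumulative share of clusters of exactly 3 regions by span (kb, log scale). The Tbx3-only curves lie to the left of the curve for clusters near another factor, with median gaps of 1152 and 2280 bp.

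Regions of the Tbx3-only clusters were as wide as those of clusters near another factor. Their median of 150 bp (exact 95% interval 145 to 153 bp) equalled that of runs near another factor, 150 bp (147 to 153 bp). Tbx3-only pairs had a median of 145 bp (142 to 148 bp) and single Tbx3 regions without another factor one of 140 bp (139 to 142 bp). Regions of 200 bp or more made up 22.7% of members (20.2 to 25.4%), 24.3% of regions in runs near another factor (22.5 to 26.2%), 21.2% in pairs (19.3 to 23.1%) and 18.5% of single regions (17.4 to 19.6%). Members were wider than single regions by 10 bp in the median, with intervals that do not overlap. Close and distant members were of similar width. Those with another member within 500 bp had a median of 150 bp (143 to 159 bp) and the remaining members 149.5 bp (142 to 156 bp). In domains of exactly 3 regions the widest region was the middle one in 47 of 207 (22.7%, 17.2 to 29.0%), the first along the chromosome in 70 (33.8%, 27.4 to 40.7%) and the last in 87 (42.0%, 35.2 to 49.1%), with 3 ties. The interval of the middle place overlaps that of the first and not that of the last. Near another factor the middle region was the widest in 89 of 283 runs (31.4%, 26.1 to 37.2%), and these intervals overlap. The 3 widest members were the region on chromosome 3 named above, one of the same 394 bp at chr10:98376458-98376851 and one of 387 bp at chr7:118226248-118226634, each just below the limit of 400 bp. At the other end, 13 members had the smallest width in the list, 100 bp, for example at chr2:27277390-27277489, chr2:30327865-30327964 and chr5:34162845-34162944.

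The larger a run of Tbx3 regions was, the less often it was free of the other factors. A run is free only if none of its regions has another factor within 10 kb, so the rule itself favours this direction. Whether the fall goes beyond that was not tested. Of the 6643 Tbx3 regions that stood alone, 70.3% (exact 95% interval 69.2 to 71.4%) had no Nkx2-5 or Gata4 region within 10 kb. The share was 56.8% (54.4 to 59.2%) for 1634 pairs, 42.2% (37.8 to 46.8%) for 490 runs of 3, 29.5% (23.1 to 36.5%) for 190 runs of 4, 27.3% (18.3 to 37.8%) for 88 runs of 5 and 12.9% (5.74 to 23.9%) for 62 runs of 6 or more. Span rose with the number of regions as well, from a median of 1.30 kb in Tbx3-only pairs to 16.6 kb in the 8 Tbx3-only clusters with 6 or more regions, so number and span cannot be told apart in this order. Tbx3-only clusters of 6 or more regions were thus 8 of 62 such runs.

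**Figure D3:**
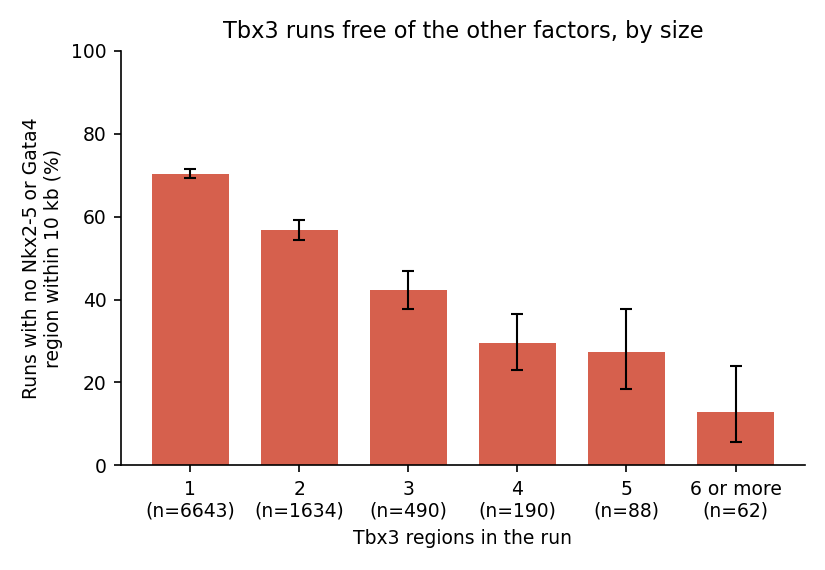
Share of runs of Tbx3 regions with no Nkx2-5 or Gata4 region within 10 kb (y axis, %) by the number of Tbx3 regions in the run (x axis, with the number of runs). Error bars are exact 95% intervals. The share falls from 70.3% for single regions to 12.9% for runs of 6 or more, a direction that the rule favours.

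Clusters free of the other factors made up a larger share of the Tbx3 clusters than of the clusters of Nkx2-5 or Gata4. Of the 858 domains of all 3 lists with 3 or more Tbx3 regions, 34.4% (exact 95% interval 31.2 to 37.7%) held no other factor. Another 405 held Nkx2-5 as well, 26 held Gata4 as well and 132 held both. By the same rule, 9 of the 234 domains with 3 or more Nkx2-5 regions (3.85%, 1.77 to 7.18%) held Nkx2-5 alone, and these had 28 regions. For Gata4 it was 1 of 21 domains (4.76%, 0.120 to 23.8%). The Tbx3 list is also the longest, so factor and list length cannot be told apart here. The order was not tested at equal list lengths.

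Beyond the 10 kb bound, Nkx2-5 was often not far away. The median distance from a Tbx3-only cluster to the nearest Nkx2-5 region was 58.8 kb (exact 95% interval 47.5 to 71.8 kb) and to the nearest Gata4 region 263 kb (221 to 335 kb). The nearest other region was one of Nkx2-5 for 254 clusters (86.1%, 81.6 to 89.8%), a share near that of Tbx3-only pairs (83.3%) and single Tbx3-only regions (84.0%). An Nkx2-5 region lay within 50 kb of 135 clusters (45.8%). Within 100 kb this held for 200 clusters (67.8%), against 62.3% of pairs and 59.2% of single regions. A Gata4 region lay within 100 kb of 72 clusters (24.4%, against 24.5% of pairs and 20.4% of single regions). The next Tbx3 region was nearer still, at a median of 30.8 kb (24.5 to 37.1 kb). It was closer than any region of the other factors for 223 clusters (75.6%, 70.3 to 80.4%). This share was 66.2% (63.0 to 69.2%) for pairs and 65.9% (64.5 to 67.3%) for single regions. The groups were defined by local Tbx3 number and by absence of the other factors within 10 kb. This share is therefore not independent of the rule. The order of the median distances is also that of the filtered list lengths (13011 Tbx3, 6547 Nkx2-5 and 1691 Gata4 regions). Distances were not adjusted for list length.

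Single Tbx3 regions and pairs that were free of the other factors share the 10 kb bound, so their surroundings were set beside those of the clusters. The clusters were closer to Nkx2-5 than single regions were, whose median distance was 76.6 kb (exact 95% interval 73.2 to 80.0 kb), and about as close as pairs, at 61.2 kb (54.5 to 69.3 kb). An Nkx2-5 region lay within 50 kb of 45.8% (40.0 to 51.6%) of clusters, 43.0% (39.8 to 46.3%) of pairs and 36.1% (34.7 to 37.5%) of single regions. For Gata4 within 50 kb the shares were 13.9% (10.2 to 18.4%), 12.3% (10.2 to 14.6%) and 10.5% (9.63 to 11.4%), with overlapping intervals for clusters and single regions. The surroundings of the clusters were also richer in Tbx3, with a mean of 3.86 further Tbx3 regions within 100 kb, against 3.11 for pairs and 2.77 for single regions. For Nkx2-5 these means were 1.66, 1.45 and 1.28. No intervals were computed for the means. Clusters, pairs and single regions were themselves defined by local Tbx3 number, so the Tbx3 means are not independent of the rule. Whether the Nkx2-5 and Gata4 values merely follow local Tbx3 number was not tested.

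**Figure D4:**
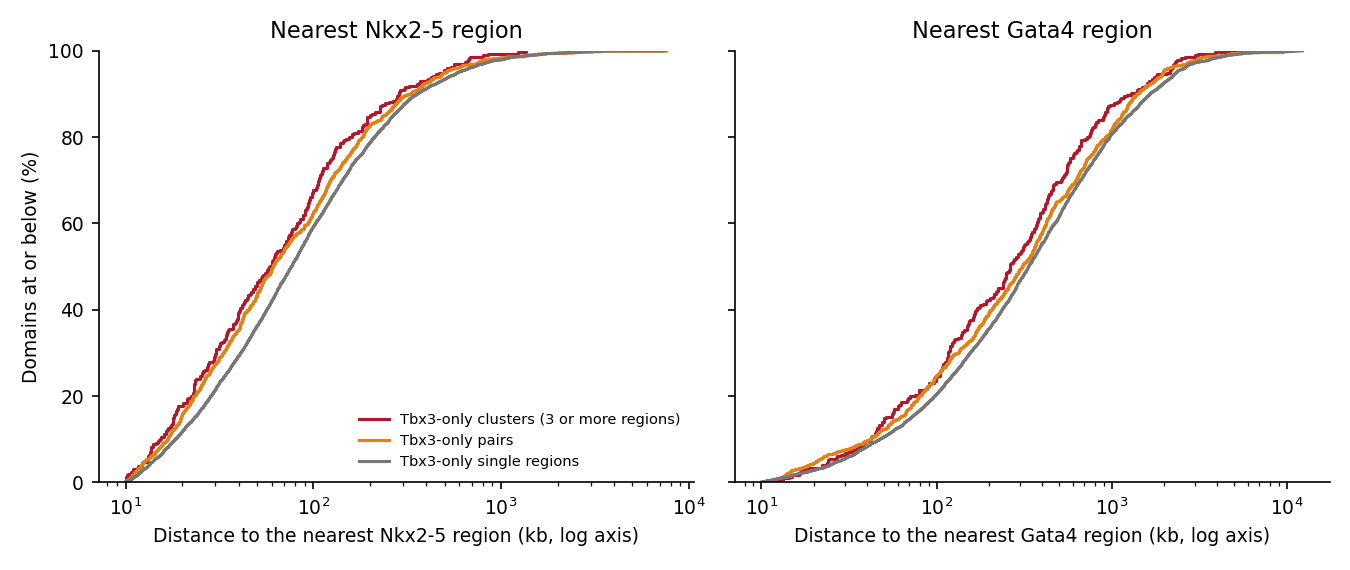
Cumulative share of Tbx3-only clusters, pairs and single regions (y axis, %) by distance to the nearest Nkx2-5 region (left) and Gata4 region (right; x axes in kb, log scale). All distances start at the 10 kb bound; median distances to Nkx2-5 were 58.8 kb for clusters and 76.6 kb for single regions.

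Near the bound the choice of members turned on small distances. A total of 58 clusters (19.7%) had another factor's region between 10 and 20 kb away. Those closest inside were chr11:88388154-88399121 with 4 regions, whose nearest Nkx2-5 region was 10010 bp away, chr4:119814434-119821648 with 4 regions (10068 bp) and chr5:125870381-125873913 with 3 regions (10069 bp). Just outside were runs of 3 Tbx3 regions at chr10:39089292-39098206, with Gata4 at 9950 bp, and at chr5:93326917-93327543 and chr16:87699145-87700586, with Nkx2-5 at 9828 and 9403 bp. The width limit left a region of another factor uncounted at 1 member domain, chr8:124085636-124102782. An Nkx2-5 region of 538 bp and a Tbx3 region of 567 bp, both left out for their width, overlapped there at 124086767 to 124087304 and 124086819 to 124087385, so this domain was not free of Nkx2-5 in the whole list. No Gata4 region left out by the filter lay within 10 kb of a member domain. Tbx3 regions above the width limit lay in or within 10 kb of 5 other member domains, the one on chromosome 17 described above included. Without the width limit there were 298 domains with 1030 members.

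The clusters were spread over all 19 autosomes, from 6 domains on chromosome 16 to 30 on chromosome 11. As a share of the runs of 3 or more Tbx3 regions on a chromosome they ranged from 28.3% on chromosome 8 to 56.5% on chromosome 14, and the exact 95% interval held the overall 35.5% on each of the 19 chromosomes. These intervals were wide, for example 34.5 to 76.8% on chromosome 14, and a difference between chromosomes was not tested. Members made up between 4.46% (chromosome 16) and 10.3% (chromosome 10) of the filtered Tbx3 regions of a chromosome, against 7.82% over all. No intervals were computed for this share by chromosome.

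**Figure D5:**
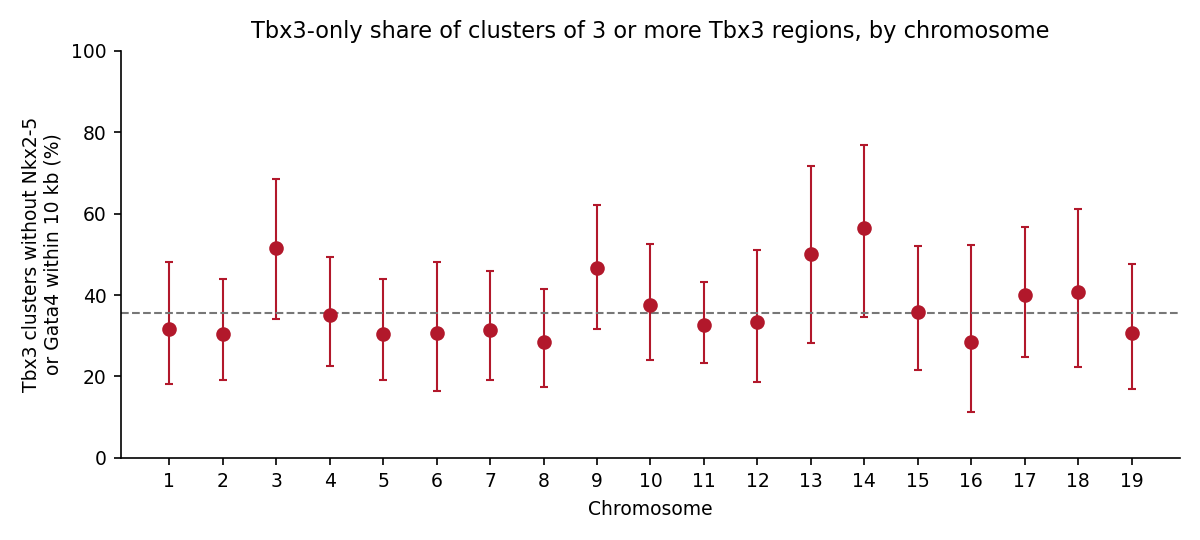
Share of runs of 3 or more Tbx3 regions that had no Nkx2-5 or Gata4 region within 10 kb (y axis, %) on each autosome (x axis). Bars are exact 95% intervals and the dashed line is the share over all autosomes, 35.5%, which lies within each of them.

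Some Tbx3-only clusters neighboured each other. For 33 of the 295 (11.2%, exact 95% interval 7.83 to 15.4%) another lay within 100 kb, whereas the median distance to the next was 1001 kb. In the closest pair of clusters, chr4:141062303-141080766 with 4 regions and chr4:141092769-141103109 with 6, the gap was 12.0 kb. Together they held 10 Tbx3 regions within 40.8 kb. A counted Nkx2-5 or Gata4 region in that gap would have lain within 10 kb of a cluster. The rule therefore fixes the absence of such a region between them. The nearest Nkx2-5 region to the second cluster was 94.1 kb away. On chromosome 14 the longest domain was followed after 14.2 kb by a cluster of 4 regions at 26368312 to 26382180. Other pairs less than 25 kb apart were found on chromosome 4 (18.9 kb), on chromosome 7 (15.99 and 18.005 kb) and on chromosome 8 (24.2 kb).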

How the data were processed

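The deposited lists for Tbx3, Nkx2-5 and Gata4 (1 library each) hold positions in BED form and nothing else, on mm9 according to the submitters' processing notes. Aligner, peak caller, threshold, depth and any control are not given in the sources used, so regions could not be weighted by depth. Samples were grouped by the target in their titles. Starts were counted from 0 in the files and are printed from 1. The filter left 13011 of 13242 Tbx3, 6547 of 6705 Nkx2-5 and 1691 of 1756 Gata4 regions. Joining, gaps, distances and exact 95% intervals (Clopper-Pearson for shares, order statistics for medians) were computed in Python 3.11.15 with numpy 2.4.6 and scipy 1.17.1. Distances run from edge to edge. On 20 simulated sets of lists the member rule found the same 1427 regions as a direct comparison of all pairs. No test was run: regions of 1 library are not replicates. Named domains are the 10 with the most regions (ties by covered length), the longest, the shortest, the nearest to and farthest from another factor and those at the bound, with the 3 widest and 3 narrowest regions. The closest pairs of clusters and the domain on chromosome 8 were picked after their values were seen. Members and comparisons were chosen with earlier results of these data known. Motif, base content, gene location and gene lists, planned for an mm9 genome, were not run.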

Additional observations from a re-analysis of the deposited data

How the results depend on the processing

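Each alternative changed 1 choice. Of 75 recomputed values, 44 stayed within 1.5 times (counts) or within the exact 95% interval of the value reported (medians and shares). The values with no width filter (298 domains) and with Nkx2-5 and Gata4 regions of any width (294 domains) were among these. So were 10 values with the X chromosome kept, but this setting added no member and left each of them identical, so it says nothing about stability. Regions less than 1 kb apart merged to 1 site left 400 members in 121 domains, with a median gap of 3702 bp and span of 9981 bp; runs near another factor then had a median gap of 4299 bp and width of 160.5 bp, and Tbx3-only clusters were 26.4% of runs. A minimum of 4 Tbx3 regions left 396 members in 88 domains, a median span of 8515 bp, 25.9% of runs, and single-site shares of 14.8% for Tbx3 alone and 3.17% near another factor. The wider 50% of the Tbx3 list left 210 members in 65 domains, 28.9% of runs, and median widths of 186.5 bp for members and 197 bp near another factor. Joining across 5 kb gave a median gap of 621 bp and span of 2627 bp, 41.8% of runs, a median gap of 1133 bp near another factor, and single-site shares of 41.0% and 21.2%. Joining across 20 kb gave a median gap of 2359 bp and span of 11741 bp, 28.3% of runs, 4509 bp near another factor, single-site shares of 18.3% and 4.57%, and a median distance of 72216 bp to the nearest other factor. Gaps and spans move with the joining distance and the merging by construction. Keeping the wider 50% of the list raises widths by selection. A minimum of 4 keeps only the 88 domains that already held 4 or more regions. Joining across 20 kb raises the smallest possible distance to another factor to 20 kb. The cause of the other shifts was not tested. Gaps were smaller in Tbx3-only clusters than near another factor under all 7 settings in which both were computed (the X chromosome included, where nothing changed), though with merged sites only as 3702 against 4299 bp, with overlapping intervals. Every setting used the same lists and kept the rule that links span and freedom from other factors. The shared direction is therefore not an independent check. The measures of runs near another factor and of single sites, and the setting with Nkx2-5 and Gata4 regions of any width, were chosen after seeing the data. Sequence and gene alternatives were not run. No paired analysis was possible because each factor has 1 library, and leaving out a replicate was likewise not possible. Depth is unknown, so absence of Nkx2-5 or Gata4 from a list may lie below its threshold.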
